A study of Mus musculus with 6 samples.

Results

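The nuclear genes of oxidative phosphorylation were followed in subcutaneous mouse tumours taken 4 h after doxycycline and in untreated tumours. The genes were chosen by symbol: those starting with Nduf (complex I), Uqcr (complex III), Atp5 (complex V, the ATP synthase) or Cox followed by a digit from 4 to 8 (complex IV), and the 4 Sdh genes of complex II. This gave 92 of the 21671 named genes. Cox6a2, Cox7a1 and Cox8b, the complex IV isoforms of heart and skeletal muscle, are described apart. The rule also takes in genes that are not subunits. The 7 Ndufaf genes and Atp5sl are assembly factors, Cox7a2l joins complexes into supercomplexes, and Ndufa4, named for complex I, belongs to complex IV. Complexes are counted below by symbol.

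The tumours grew in CD1 nude mice (labelled CD1 nude ho) after injection of transformed hepatoblasts, which are fetal liver progenitors. The injected cells of both groups carried TtRMPVIR shST18, a conditional vector whose hairpin RNA against St18, a zinc finger transcription factor, is turned on by doxycycline. The 3 libraries taken 4 h after doxycycline (given by oral gavage at 200 mg/ml, 300 µl in water, as a first dose) are labelled ST18 knockdown, and the 3 untreated libraries are labelled wild type. No animals given the drug without the hairpin are described, so effects of the drug, the gavage and the hairpin cannot be told apart. The labels do not state whether the 3 libraries of a group are from separate animals, and p-values measure the spread between these libraries, which may be technical.

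Oxidative phosphorylation takes electrons from NADH at complex I and from succinate at complex II, passes them through complexes III and IV to oxygen, and uses the proton gradient built on the way to make ATP at complex V. Most subunits are encoded in the nucleus, and a few core subunits in mitochondrial DNA. Several complex IV subunits exist as a liver type, found in most tissues, and a muscle type. Nuclear respiratory factor 1 (NRF1), the ETS factor GABP and the estrogen-related receptors are known regulators of many of the nuclear genes. Doxycycline is of the tetracyclines, which block bacterial ribosomes and can also slow mitochondrial translation. No symbol starting with mt- was in the table, so mitochondrially encoded subunits were not analysed here.

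Promoter sequences are shown for the muscle isoforms Cox8b and Cox7a1 and for the partners Cox8a, Cox7a2 and Cox6a1, because the muscle forms were far below their partners in every library of both groups. Each runs 5′ to 3′ from 250 bases before to 50 after the RefSeq gene start, on GRCm38.p6, and is not from the authors' build. Capitals mark matches, on either strand, to the letters CCGGAA (ETS core), CAGCTG (an E-box of myogenic factors), TATAAA (bound by the general factor TBP), GCATGCGC (NRF1 core, whose matches on the 2 strands can overlap) and AAGGTCA (estrogen-related receptor element).
Cox8b (chr7:140900397-140900696, minus strand): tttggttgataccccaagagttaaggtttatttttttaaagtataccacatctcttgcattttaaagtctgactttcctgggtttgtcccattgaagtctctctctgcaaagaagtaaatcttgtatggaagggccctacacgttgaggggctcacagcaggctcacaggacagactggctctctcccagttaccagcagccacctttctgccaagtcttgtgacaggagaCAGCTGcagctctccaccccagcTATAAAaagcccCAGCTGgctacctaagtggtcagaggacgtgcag
Cox8a (chr19:7217567-7217866, minus strand): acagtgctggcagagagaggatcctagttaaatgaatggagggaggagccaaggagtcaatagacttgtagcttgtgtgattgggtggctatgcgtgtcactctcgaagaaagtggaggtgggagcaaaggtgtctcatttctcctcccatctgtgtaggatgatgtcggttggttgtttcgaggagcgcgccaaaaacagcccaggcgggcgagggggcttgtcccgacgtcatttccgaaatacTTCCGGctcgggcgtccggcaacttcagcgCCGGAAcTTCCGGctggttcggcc
Cox7a1 (chr7:30183921-30184220, plus strand): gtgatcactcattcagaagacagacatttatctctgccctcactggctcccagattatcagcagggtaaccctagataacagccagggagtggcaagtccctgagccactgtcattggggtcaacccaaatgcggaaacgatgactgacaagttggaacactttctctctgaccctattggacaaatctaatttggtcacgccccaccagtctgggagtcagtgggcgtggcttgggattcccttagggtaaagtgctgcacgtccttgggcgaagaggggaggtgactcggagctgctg
Cox7a2 (chr9:79759804-79760103, minus strand): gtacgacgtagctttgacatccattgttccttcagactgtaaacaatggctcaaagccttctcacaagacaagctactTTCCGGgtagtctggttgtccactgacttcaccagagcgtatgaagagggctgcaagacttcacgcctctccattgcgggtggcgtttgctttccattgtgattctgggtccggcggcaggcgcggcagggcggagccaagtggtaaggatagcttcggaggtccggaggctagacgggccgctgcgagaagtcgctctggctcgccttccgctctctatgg
Cox6a1 (chr5:115348909-115349208, minus strand): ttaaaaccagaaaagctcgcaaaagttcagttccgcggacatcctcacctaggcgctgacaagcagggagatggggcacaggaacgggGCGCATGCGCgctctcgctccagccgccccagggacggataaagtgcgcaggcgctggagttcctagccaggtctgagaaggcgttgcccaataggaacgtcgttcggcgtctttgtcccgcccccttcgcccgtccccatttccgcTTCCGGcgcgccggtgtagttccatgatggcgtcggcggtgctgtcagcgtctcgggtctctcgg

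The muscle isoform Cox8b held 2 matches to CAGCTG and 1 to TATAAA, and its partner Cox8a held 3 matches to CCGGAA. In the Cox7a1 window none of the 5 letter strings was found, while Cox7a2 and Cox6a1 each held 1 CCGGAA, and Cox6a1 held an overlapping pair of NRF1 matches. RefSeq windows were found for 74 of the 92 genes. Among these, GCATGCGC occurred in 12 (16.2%), against 3.8% of 15511 other genes of the table and 2.71% of all 32851 windows of this length. The CCGGAA letters were in 26 of the 74 (35.1%), against 19.7% of the other genes and 14.9% of all windows. AAGGTCA was in 8 (10.8%), against 3.89% and 4.72%. CAGCTG (8.11%, against 15.6% and 16.3%) and TATAAA (9.46%, against 12.8% and 13.6%) were in smaller shares than elsewhere. These are counts of letters, with no test.

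Library totals ran from 12090309 to 15899374 counts after doxycycline and from 13148155 to 16169043 untreated. St18, the hairpin's target, had 34, 12 and 61 counts in the doxycycline libraries and 12, 23 and 19 in the untreated ones (log2 fold change 1.03, SE 0.55, adjusted p = 0.298), so the labelled knockdown was not seen in St18 RNA, and "doxycycline" below names the libraries labelled ST18 knockdown. Of 16 skeletal muscle markers, 10 were called higher after doxycycline, where 2.84% of all genes were called higher and 2.18% lower. This count was 1 with limma-voom (3.71% of all genes called), 2 with no filter on low counts (4.01%) and 2 without doxycycline replicate 1 (2.76%). It was 0 without any 1 of the untreated libraries, where 0.151% to 0.345% of all genes were called. Under the other alternatives it was 8 to 15. The summed level of the muscle markers was 449.5 to 3084 CPM in the doxycycline libraries and 85.2 to 236.7 CPM in the untreated ones. CPM are TMM-normalised counts relative to library size, the scale of all levels below. Ttn alone held most of this sum, at 935, 2041 and 297.1 CPM after doxycycline and 44.6, 156.5 and 68.1 CPM untreated. No muscle marker was at 0 in every library. Fibroblast and mural markers (3 of 9 higher) summed to 1502 to 1604 and 1136 to 1210 CPM, macrophage markers (3 of 6 higher) to 358 to 495.6 and 264.7 to 302.5 CPM, endothelial markers (2 of 5 higher) to 293.2 to 322.5 and 210.1 to 240.6 CPM, and neutrophil markers (1 of 4 lower) to 22.3 to 52.3 and 74.2 to 119.3 CPM. Of 9 heart and slow muscle markers, 4 were tested and Tnni1 was higher; of 8 fat markers only Fabp4 was tested and it did not pass. Hepatic identity genes were low: Alb stayed at or below 0.151 CPM and Hnf4a at or below 1.08 CPM, while the keratins Krt8 and Krt18 lay between 21.3 and 89.9 CPM, and 0 of 7 tested markers of this class were called. Calls in these smaller lists depended on the setting. Macrophage calls were 0 with GC content and length offsets, neutrophil calls 0 with those offsets and with limma-voom, and endothelial calls 0 with the replicate block, alone or with offsets. Without any 1 untreated library the macrophage, endothelial, neutrophil and heart and slow muscle lists had 0 calls, and the fibroblast and mural list had 2. Macrophage, endothelial and heart and slow muscle calls were also 0 without doxycycline replicate 3. Macrophage, neutrophil and heart and slow muscle calls were 0 without doxycycline replicate 1. Shares of all genes called were 0.151% to 0.345% without 1 untreated library, 1.93% without doxycycline replicate 3 and 2.76% without doxycycline replicate 1. They were 3.67% with offsets, 3.71% with limma-voom and 2.66% with the replicate block (1.65% with block and offsets). The part of these marker shifts in the values below was not tested. In bulk tumours, fewer cells of a type and less RNA per cell cannot be told apart.

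The respiratory chain genes stayed close to their untreated levels. Of the 89 genes without the muscle isoforms, 86 passed the filter on low counts, and 0 of these were called at an adjusted p under 0.05 (edgeR quasi-likelihood test, Benjamini-Hochberg over all 14809 genes tested), where 5.02% of all genes were (2.84% higher and 2.18% lower). An unadjusted p under 0.05 was reached by 6 of the 86 (6.98%), against 23.9% of all genes. In DESeq2 1 was called (Ndufa4l2, against 11.3% of all genes) and in limma-voom 0 (3.71%). The groups did not overlap for 8 of the 86 (9.3%; 1 higher, 7 lower), against 29.6% of all genes (15.2% higher and 14.4% lower). The median log2 fold change was -0.05, with 59 values below 0 and 27 above, and their typical (median) absolute value was 0.08, against a median of 0.01 and an absolute value of 0.21 over all genes tested. The precision allows bounds: for 65 of the 86 the 95% interval lay within 0.5 log2 units of no change, and for 84 within 1 unit, the exceptions being Ndufa4l2 and Cox4i2. The tally of signs depended on the libraries and the setting: 75 values were below 0 and 11 above without doxycycline replicate 2, 77 and 9 without untreated replicate 2, and 47 and 39 without doxycycline replicate 3. With offsets for GC content and transcript length, 45 values were below 0 and 41 above, and 0 genes were called, against 3.67% of all genes.

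**Figure D1:**
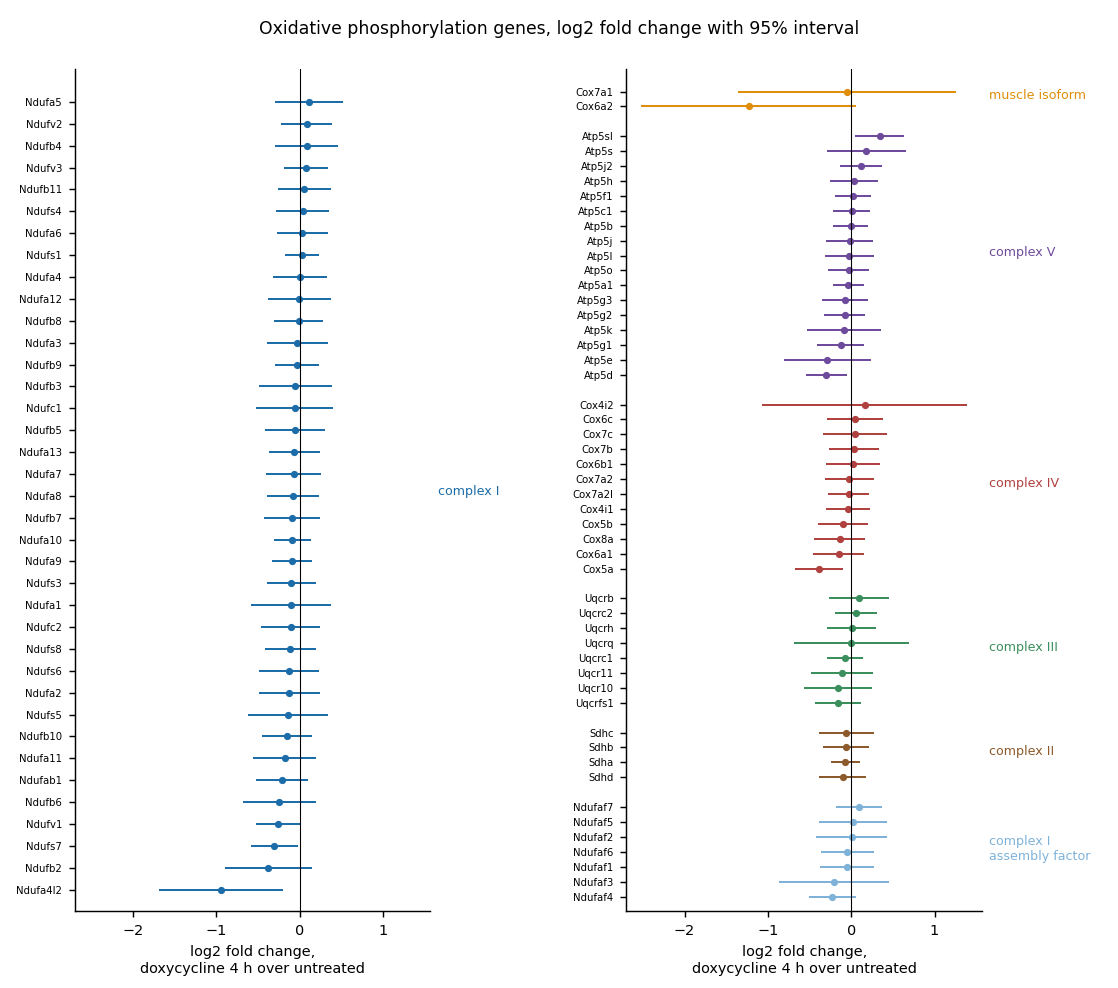
Log2 fold change (doxycycline over untreated, horizontal axis) of each tested gene reported here, Cox6a2 and Cox7a1 included, with its 95% interval from the edgeR fit, by complex. Points of the 5 complexes lie between -0.95 (Ndufa4l2) and 0.34 (Atp5sl), most intervals span 0, and Cox6a2 and Cox7a1 have the widest intervals beside Cox4i2.

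**Figure D2:**
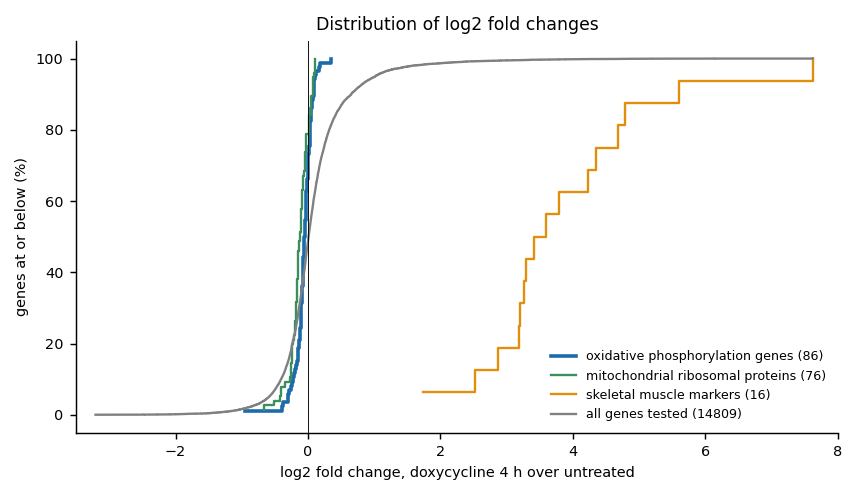
Cumulative share of genes (vertical axis, %) at or below each log2 fold change (doxycycline over untreated, horizontal axis). The 86 respiratory chain genes and 76 mitochondrial ribosomal protein genes rise steeply near 0, all 14809 genes tested are spread more widely, and the 16 skeletal muscle markers lie at 1.74 and above.

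Counts of abundant genes rose less than library totals between the shallowest and the deepest untreated library. Respiratory chain genes at 0.1 or more counts per base rose less than all genes of like counts per base. Per base of the principal transcript, the 86 genes had 0.03 to 1.68 counts (mean of all 6 libraries), with a median of 0.70 against 0.24 for all genes tested, and 84 lay at or above 0.1. Total counts of untreated replicate 2 were 1.23 times those of untreated replicate 1, or 1.20 times with TMM-adjusted totals. Between these libraries, transcripts of at least 400 bases with under 0.05 counts per base had a median count ratio of 1.35. The 3231 genes at 0.5 or more had 1.15, and the 62 respiratory chain genes among them had 1.09. At 0.1 to 0.5 counts per base, 6569 genes had 1.21, and the 21 respiratory chain genes among them had 1.08. Among the doxycycline libraries, the 89 genes without the muscle isoforms held 0.393%, 0.454% and 0.385% of counts in replicates 1, 2 and 3. Replicate 1 was the shallowest and replicate 3 the deepest, so the share did not fall steadily with depth there. Whether counts levelled off in general, and how far this would reduce fold changes, was not tested. Absolute log2 fold changes had a median of 0.11 over the 3231 genes, of which 4.02% were called, and of 0.08 over the 62, of which 0 were called.

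The summed level of these genes varied between libraries of the same group. The 86 genes summed to 3987, 4469 and 3839 CPM in doxycycline replicates 1 to 3 and to 4450, 4030 and 4288 CPM in untreated replicates 1 to 3, or 4098 ± 329.4 and 4256 ± 211.8 CPM (SD, n = 3 each). The groups overlapped, and the difference was smaller than the spread within either. The median deviation from the untreated mean (log2 of CPM plus 0.5) was -0.11, 0.10 and -0.15 in doxycycline replicates 1 to 3 and 0.07, -0.08 and 0.02 in untreated replicates 1 to 3. Doxycycline replicate 2, which also had the largest muscle marker sum (3084 CPM), was the highest library for 45 of the 86 genes, and doxycycline replicates 1 and 3 were the lowest for 29 and 37. Doxycycline replicate 1 differed between complexes, at -0.22 for complex III and -0.20 for complex II but -0.01 for complex V and -0.04 for complex IV.

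**Figure D3:**
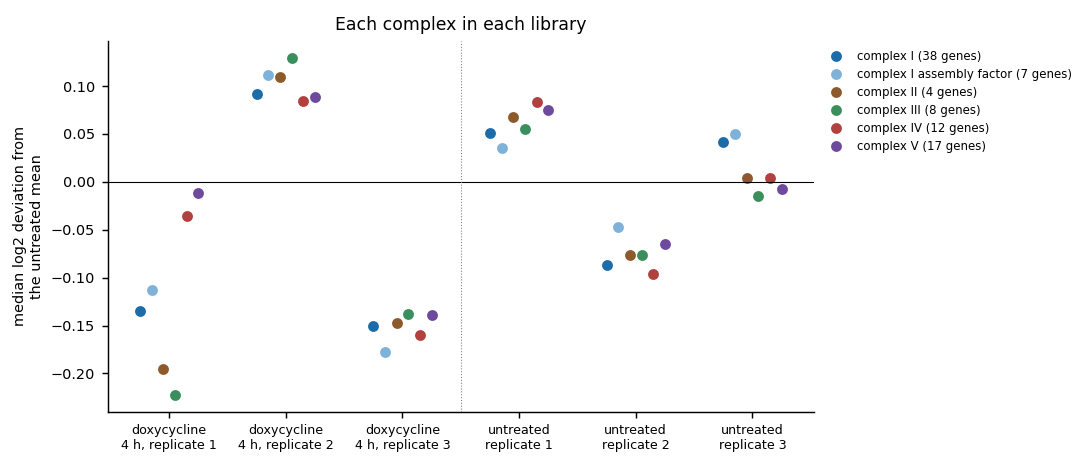
Median log2 deviation from the untreated mean (vertical axis) of the genes of each complex in each of the 6 libraries. All groups of genes lie above 0 in doxycycline replicate 2 (0.08 to 0.13) and below 0 in doxycycline replicates 1 and 3, while the untreated libraries lie between -0.10 and 0.08.

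Other genes of like transcript length moved in part the same way. For transcripts under 700 bases, 33 respiratory chain genes had median deviations of -0.14, 0.09 and -0.15 in doxycycline replicates 1 to 3, and 385 other genes with at least 0.1 counts per base had -0.20, 0.04 and -0.14. For transcripts over 1500 bases, 18 respiratory chain genes were at -0.02, 0.09 and -0.10, and 8103 others at -0.01, -0.01 and -0.03. Among the untreated libraries, the shallowest (replicate 1) was at 0.07 and the deepest (replicate 2) at -0.09 for the short respiratory chain genes, with 0.04 and -0.06 for the others. For transcripts over 1500 bases these libraries were at 0.075 and -0.073 for the respiratory chain genes, with 0.0004 and 0.002 for the others. The part of transcript length in the values of single genes was not tested beyond the fit with length offsets.

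Complex I takes electrons from NADH. Its 38 genes, by symbol, had a median log2 fold change of -0.07, with 9 values above 0 and 29 below, and 0 were called. Ndufa4l2, a paralog of Ndufa4 known as a target of the hypoxia factor HIF-1, had the largest difference. It stood at 16.1, 6.53 and 15.8 CPM after doxycycline and at 26.6, 21.8 and 25.7 CPM untreated, and every doxycycline library was below every untreated one. Its log2 fold change of -0.95 (SE 0.32, 95% interval -1.68 to -0.21, edgeR adjusted p = 0.124) did not pass the threshold, although DESeq2 called it (-0.95, adjusted p = 0.0351; range over all alternatives 0.0351 to 0.346). Its annotated exons share 32 bases with Shmt2 on the other strand, and Shmt2 was lower after doxycycline (-0.64, adjusted p = 0.0363). Ndufa4 itself was at 33.3 ± 4.18 CPM after doxycycline and 33.3 ± 1.51 CPM untreated (log2 fold change 0.00, 95% interval -0.31 to 0.31).

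Among the core subunits of complex I, Ndufs7, which carries the last iron-sulfur cluster before ubiquinone, was at 35.8, 39.0 and 34.0 CPM after doxycycline and 45.9, 41.3 and 46.9 CPM untreated (log2 fold change -0.30, 95% interval -0.57 to -0.03, adjusted p = 0.167). Ndufv1, which binds NADH and the flavin, was at 73.3, 97.0 and 83.4 CPM after doxycycline and 101.2, 97.0 and 104.6 CPM untreated (-0.25, interval -0.51 to -0.00, adjusted p = 0.209). The groups did not overlap for either gene, by a margin of less than 0.1 CPM for Ndufv1, and neither passed the threshold. With GC content and length offsets Ndufs7 was at -0.046 (adjusted p = 0.819) and Ndufv1 at -0.14 (adjusted p = 0.476), and without doxycycline replicate 1 Ndufv1 was at -0.16 (adjusted p = 0.362). The core subunit Ndufs1 was at 153.1 ± 14.4 CPM after doxycycline and 150.2 ± 3.27 CPM untreated (0.03, interval -0.16 to 0.22). Ndufb8, an accessory subunit of the membrane arm and the complex I gene with the most counts per base, was at 54.0 ± 6.54 CPM after doxycycline and 54.3 ± 4.25 CPM untreated. The accessory subunit gene Ndufb2 varied more, at 15.9 ± 4.44 CPM after doxycycline and 20.7 ± 1.098 CPM untreated (-0.38, interval -0.89 to 0.14, adjusted p = 0.352). The accessory genes Ndufa11 (-0.18) and Ndufab1, the mitochondrial acyl carrier protein (-0.21), also had no overlap between groups and adjusted p of 0.537 and 0.367. Annotated exons of Ndufa11 share 70 bases with Vmac on the other strand. The 7 Ndufaf assembly factors ran from -0.23 (Ndufaf4) to 0.09 (Ndufaf7), and 0 were called.

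Complex II, succinate dehydrogenase, also serves the citric acid cycle and has no mitochondrially encoded subunit. Sdha, the flavoprotein that oxidises succinate, was at 173.2, 164.6 and 167.3 CPM after doxycycline and 185.6, 169.2 and 175.2 CPM untreated (log2 fold change -0.07, SE 0.07, 95% interval -0.23 to 0.09, edgeR adjusted p = 0.593). Sdhb, the iron-sulfur subunit, was at 57.5, 67.5 and 53.8 CPM after doxycycline and 66.0, 59.0 and 61.5 CPM untreated (-0.06, interval -0.32 to 0.20). The membrane anchors Sdhc (50.2, 71.0 and 54.9 CPM after doxycycline; 63.8, 57.9 and 62.0 CPM untreated) and Sdhd (67.2, 87.7 and 74.1 CPM after doxycycline; 85.5, 75.6 and 84.6 CPM untreated) had log2 fold changes of -0.06 and -0.10. For Sdhb, Sdhc and Sdhd doxycycline replicate 2 was the highest of all 6 libraries and replicates 1 and 3 were the lowest.

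Complex III hands electrons on to cytochrome c. Its 8 Uqcr genes split evenly by sign (4 above 0 and 4 below), between -0.16 and 0.09, and 0 were called. Uqcrfs1, the Rieske iron-sulfur protein, was at 51.7, 65.8 and 55.8 CPM after doxycycline and 66.9, 66.3 and 60.6 CPM untreated (log2 fold change -0.16, 95% interval -0.43 to 0.10, edgeR adjusted p = 0.446). Uqcr10 was at -0.16 and Uqcr11 at -0.11, and Uqcrh, the hinge protein, at 0.01 (40.8, 43.8 and 37.0 CPM after doxycycline; 43.3, 37.0 and 40.6 CPM untreated). Uqcrq varied most, with 108, 301 and 285 counts after doxycycline and 204, 287 and 209 untreated, so its interval of -0.68 to 0.69 is wide. The gene Cyc1, cytochrome c1 of the same complex but outside the symbol rule, was at 53.5, 77.7 and 68.4 CPM after doxycycline and 78.6, 79.1 and 82.4 CPM untreated (-0.26, adjusted p = 0.279).

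Complex IV reduces oxygen to water. Of its 12 tested genes, 0 were called, and all but Cox5a and Cox4i2 lay between -0.15 and 0.05. Cox5a, a nuclear subunit on the matrix side, had the smallest p of all 86 genes. It was at 27.9, 31.9 and 28.3 CPM after doxycycline and 40.3, 37.2 and 37.7 CPM untreated, with no overlap (log2 fold change -0.39, SE 0.12, 95% interval -0.67 to -0.10, edgeR adjusted p = 0.109, range over alternatives 0.0393 to 0.336). Annotated exons of Cox5a share 269 bases with Gm26631 on the other strand. Cox5b, the neighbour of Cox5a in the complex, was at -0.10 (interval -0.38 to 0.18). Cox4i1, the main form of subunit 4, was at 60.5, 66.0 and 55.2 CPM after doxycycline and 66.4, 57.5 and 62.4 CPM untreated (-0.04). Its oxygen-responsive isoform Cox4i2 was at 1.68, 0.962 and 2.26 CPM after doxycycline and 0.681, 1.26 and 2.43 CPM untreated, with a wide interval of -1.06 to 1.38 (log2 fold change 0.16). Cox6b1 was at 37.4 ± 4.13 CPM after doxycycline and 36.8 ± 3.35 CPM untreated (0.03), and the supercomplex factor Cox7a2l at 80.6 ± 7.40 and 82.4 ± 5.16 CPM (-0.03). The forms best known from testis were almost absent and were not tested: Cox6b2 had 3, 1 and 5 counts after doxycycline and 6, 1 and 8 untreated, Cox7b2 had 1 count and Cox8c 1 count in all.

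Complex V genes included the most abundant of the whole set. Per kilobase of transcript, averaged over all 6 libraries, Atp5g2, which encodes the c subunit of the rotor, reached 116.8 CPM, against medians of 59.9 for complex V, 59.5 for complex III, 56.4 for complex II, 56.1 for complex IV and 41.9 for complex I, and 18.1 for the assembly factors. These levels per kilobase depend on the transcript chosen and on any levelling of counts. The catalytic subunit Atp5b was at 205.9, 191.5 and 171.7 CPM after doxycycline and 201.7, 179.5 and 188.9 CPM untreated (log2 fold change -0.00, SE 0.09, 95% interval -0.20 to 0.20), and Atp5a1, its partner in the catalytic ring, at 213.7 ± 15.3 and 219.0 ± 10.4 CPM (-0.04). Atp5g2 was at 48.6, 52.6 and 49.1 CPM after doxycycline and 56.0, 50.4 and 52.5 CPM untreated (-0.08). Atp5d, the delta subunit of the central stalk, was at 47.2, 44.7 and 45.6 CPM after doxycycline and 58.9, 52.7 and 57.4 CPM untreated, without overlap (-0.30, 95% interval -0.53 to -0.07, edgeR adjusted p = 0.124). With GC content and length offsets it was at -0.046 (adjusted p = 0.823). Annotated exons of Atp5d share 68 bases with Cbarp on the other strand. The assembly factor gene Atp5sl was the only one with every doxycycline library above every untreated one: 39.6, 39.9 and 35.6 CPM after doxycycline and 32.1, 29.8 and 29.0 CPM untreated (0.34, interval 0.06 to 0.62, adjusted p = 0.139). Neither passed the threshold.

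Leaving out doxycycline replicate 2 was the setting that brought most calls. Without it Cox5a (log2 fold change -0.45, edgeR adjusted p = 0.0393), Ndufa4l2 (-0.63, adjusted p = 0.0368) and Ndufv1 (-0.37, adjusted p = 0.0285) were lower, that is 3.49% of the 86 genes, and 13.9% of all genes were called. The count was 0 without each of the other libraries, with 1 to 4 genes at an unadjusted p under 0.05. Few genes of the whole table were called there either: 2.76% and 1.93% without doxycycline replicates 1 and 3, and 0.151% to 0.345% without 1 untreated library.

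The muscle isoforms did not follow the muscle markers as a group. Cox6a2, the heart and muscle form of subunit 6a, was at 0.922, 3.57 and 0.878 CPM after doxycycline and 4.01, 3.21 and 5.47 CPM untreated. Doxycycline replicates 1 and 3 lay below every untreated library, and replicate 2 within their range. Its log2 fold change came to -1.23 (SE 0.56, 95% interval -2.51 to 0.05, edgeR adjusted p = 0.228), and without doxycycline replicate 2 it was -2.23 and passed the threshold (adjusted p = 0.00985, range over alternatives 0.00985 to 0.549). Its exons share 70 bases with Itgad on the other strand, which had 2, 4 and 7 counts after doxycycline and 7, 14 and 11 untreated. Cox7a1, the muscle and brown fat form of subunit 7a, was at 0.335, 1.99 and 1.44 CPM after doxycycline and 1.44, 1.51 and 1.01 CPM untreated (-0.05, interval -1.34 to 1.25, adjusted p = 0.971), so the groups overlapped. The third, Cox8b, was rarest, with 8, 19 and 9 counts after doxycycline and 4, 8 and 1 untreated, or 0.671, 1.31 and 0.565 CPM and 0.303, 0.503 and 0.0675 CPM. It did not pass the filter on low counts. Its groups did not overlap, and with no filter its log2 fold change was 1.51 (SE 0.74, adjusted p = 0.303).

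In the same libraries Myh4, a fast myosin, was at 79.0, 156.5 and 25.4 CPM after doxycycline and 0.303, 0.629 and 0.338 CPM untreated (log2 fold change 7.63, edgeR adjusted p = 0.00546). The muscle creatine kinase Ckm was at 24.1, 64.0 and 7.28 CPM after doxycycline and 0.227, 2.64 and 0.473 CPM untreated (4.78, adjusted p = 0.0328, range over alternatives 0.00194 to 0.222; without doxycycline replicate 2 it was 3.76 and did not pass, adjusted p = 0.0542). Both were highest in doxycycline replicate 2, as were Cox7a1 and Cox8b among all 6 libraries and Cox6a2 among the doxycycline libraries. The sarcomeric mitochondrial creatine kinase Ckmt2 was at 1.76, 6.12 and 2.01 CPM after doxycycline and 0.454, 1.38 and 0.338 CPM untreated (2.15, adjusted p = 0.106). The brown fat markers were too low to be tested and differed in direction. Ucp1 had 5, 1 and 2 counts after doxycycline and 1, 3 and 4 untreated, Cidea had 4, 4 and 5 after doxycycline and 17, 3 and 18 untreated, and Dio2 had 22, 8 and 31 after doxycycline and 3, 6 and 8 untreated.

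The liver-type partners carried most of each pair in every library. Per kilobase of transcript, Cox6a2 made up 2.15%, 6.51% and 2.05% of the pair with Cox6a1 after doxycycline and 7.18%, 6.44% and 9.61% untreated (means 3.57% and 7.74%, exact two-sided permutation test, p = 0.2). Cox7a1 made up 1.57%, 7.79% and 6.96% of its pair with Cox7a2 after doxycycline and 6.11%, 6.65% and 4.47% untreated (means 5.44% and 5.74%, exact permutation p = 1). Cox8b made up 2.87%, 4.85% and 2.53% of its pair with Cox8a after doxycycline and 1.07%, 2.09% and 0.264% untreated (means 3.42% and 1.14%, exact permutation p = 0.1). With 3 libraries against 3 the test cannot go below 0.1, and 3 pairs were tested. The partners were near their untreated levels: Cox6a1 at 37.8 ± 4.55 CPM after doxycycline and 41.9 ± 2.45 CPM untreated (log2 fold change -0.15), Cox7a2 at 35.8 ± 3.63 and 36.3 ± 0.766 CPM (-0.02), and Cox8a at 35.7 ± 3.10 and 39.3 ± 3.41 CPM (-0.14).

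**Figure D4:**
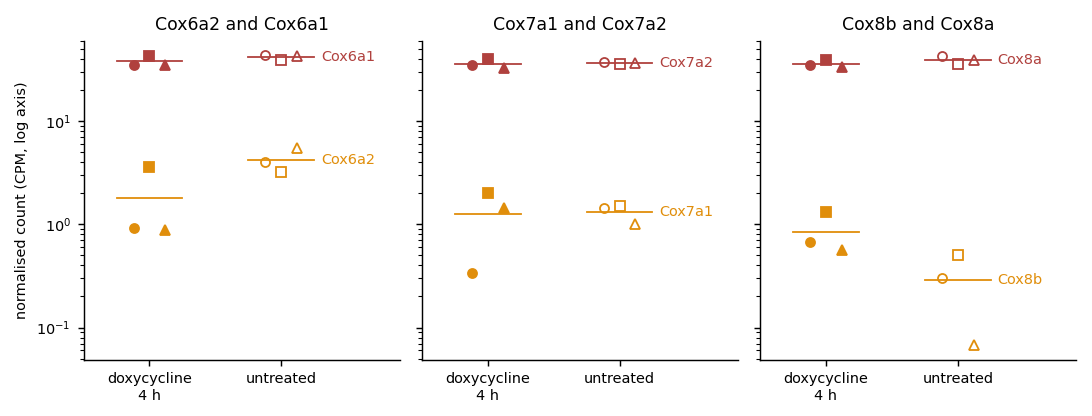
Normalised counts (CPM, log axis) of each muscle isoform and its liver-type partner in the 3 doxycycline libraries (filled) and the 3 untreated libraries (open), with circles, squares and triangles for replicates 1, 2 and 3 and lines at the group means. The partners lie between 32.4 and 43.5 CPM in every library, and the muscle isoforms between 0.0675 and 5.47 CPM.

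Lists of neighbouring mitochondrial functions are read against 5.02% of all genes called and 23.9% at an unadjusted p under 0.05. Of 37 assembly factors and chaperones outside the symbol rule, 0 were called and 9 (24.3%) had an unadjusted p under 0.05. Their log2 fold changes had a median of -0.11, with 10 above 0 and 27 below. Without doxycycline replicate 2, 6 of the 37 were called, against 13.9% of all genes. The complex I assembly factor Foxred1 came closest, at 54.7, 63.1 and 64.3 CPM after doxycycline and 78.7, 81.5 and 78.8 CPM untreated (-0.39, edgeR adjusted p = 0.0569). Of 76 mitochondrial ribosomal protein genes, 0 were called, with 7 at an unadjusted p under 0.05, a median of -0.12, and 60 values below 0. Of 17 citric acid cycle genes, 0 were called, with 4 at an unadjusted p under 0.05 and a median of -0.09; citrate synthase (Cs) was at -0.28 (adjusted p = 0.13). Of 10 other electron carriers and ATP synthase parts, 0 were called (1 at an unadjusted p under 0.05, median -0.03), among them cytochrome c (Cycs, -0.04). Leaving out doxycycline replicate 1 gave 2 calls among the mitochondrial ribosomal proteins and 1 in the citric acid cycle, against 2.76% of all genes. Leaving out doxycycline replicate 2 gave 1 among the carriers, against 13.9% of all genes. DESeq2 called 4 of the assembly factors and 5 of the mitochondrial ribosomal protein genes, and 0 of the citric acid cycle genes and carriers, against 11.3% of all genes.

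Of 14 tested regulators of mitochondrial biogenesis, 1 was called, where 5.02% of all genes were. This was Polrmt, the RNA polymerase of mitochondria, which was lower. DESeq2 called 3 of the list, against 11.3% of all genes, and the median log2 fold change of the list was -0.00. Polrmt was at 51.0, 59.0 and 56.0 CPM after doxycycline and 74.0, 83.8 and 91.1 CPM untreated, without overlap (log2 fold change -0.58, SE 0.11, edgeR adjusted p = 0.0273). With offsets for GC content and length its log2 fold change was -0.33, short of the threshold (adjusted p = 0.134; 0.167 with the replicate block added), nor did it pass without doxycycline replicate 1 or 3 or any 1 untreated library (adjusted p = 0.0586 to 0.157). Tfam, which packages mitochondrial DNA, was at 91.5, 132.6 and 103.7 CPM after doxycycline and 109.2, 110.2 and 107.4 CPM untreated (0.00, interval -0.29 to 0.30). The coactivator Ppargc1a had 9, 30 and 20 counts after doxycycline and 4, 9 and 18 untreated (0.96, adjusted p = 0.362). Nrf1 was at 0.01 and the GABP subunit Gabpa at 0.16 (adjusted p = 0.962 and 0.343). Among 10 tested carriers, uncouplers and creatine kinases, Ckm alone was called; the adenine nucleotide carrier Slc25a4 was at 102.7 ± 4.74 CPM after doxycycline and 105.5 ± 5.29 CPM untreated (-0.04), and Ucp2 at 0.43 (adjusted p = 0.0505).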

How the data were processed

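The deposited table holds raw read counts per gene, which the authors made with TopHat2 2.0.8, TopHat and HTSeq and the mm9 genome; this comes from the submitters' processing notes and the roles of the tools are not stated. Per the labels' protocols, total RNA went through Ribo-Zero depletion and the TruSeq RNA kit v2. The sources used here do not give strand use or the treatment of multiply mapped reads and duplicates, so genes with near-identical copies, such as the many processed pseudogenes of respiratory chain genes, are uncertain, as are the 31 of 92 genes whose annotated exons overlap another gene. Of 21761 rows, 90 without a gene name (0.0361% to 0.0402% of counts) were left out.

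Counts were tested in R 4.3.3 with edgeR 4.0.16 (filterByExpr, TMM, robust glmQLFit and glmQLFTest, two-sided, Benjamini-Hochberg over all genes tested, threshold 0.05), without covariates, doxycycline over untreated. Standard errors are the log2 fold change over the square root of F. Alternatives used DESeq2 1.42.0, limma 3.58.1, other scaling or filtering, GC and length offsets, a replicate block, and each library left out. The fits were tested on simulated data. Transcript length and GC content came from GENCODE vM21 (the shortest APPRIS principal transcript), matched by symbol or unique synonym for 20724 and 722 of 21671 genes. Named genes are, by rule, the isoforms, the Sdh genes, the 2 genes of smallest p and of most counts per base in each complex, and the largest differences without overlap; Ndufa11, Ndufab1, Ndufs1, Ndufb2, Cox5b, Uqcrq, Atp5a1, Foxred1, Cs, Cyc1, Cycs, Nrf1, Gabpa, Ucp1, Ucp2, Cidea, Dio2, Myh4 and the lowest and highest of a list were added after their values were seen. A gene that the rule names is counted in the sets and not reported here. Members, lists and tests were chosen with earlier results of these data known. Same-numbered libraries did not deviate together (correlations -0.01, -0.07 and 0.02), and no pair of replicates was alike within counting error (chi-square over degrees of freedom 5.17 to 29.8).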

Additional observations from a re-analysis of the deposited data

How the results depend on the processing

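Of the 86 tested genes, 0 were called higher under every alternative run, and the number lower was 1 with the DESeq2 test, 0 to 3 when 1 library was left out and 0 otherwise; the median log2 fold change lay between -0.14 and -0.00. Counts over all genes moved more: 887 higher and 782 lower with the DESeq2 test, 261 higher with limma-voom, 280 higher with GC content and length offsets, and, leaving out 1 library, 11 to 1244 higher and 12 to 866 lower. The replicate numbers do not pair the libraries; with the replicate block 215 genes were higher and 179 lower, and with block and offsets 135 and 110, and no respiratory chain gene was called. Not every library correlated best with its own number. Cox6a2 ranged from -2.23 to -0.89 and Cox7a1 from -0.52 to 0.37 over the left-out libraries, and Cox7a1 was at 0.094 with the offsets. Values near 0 changed sign, always without a call. With GC content and length offsets these were Cox6a1 (0.088; 0.087 with the block), Cox7a2 (0.038; 0.036 with the block), Cox8a (0.097; 0.098 with the block), Cox4i1 (0.14; 0.14 with the block), Ndufa4 (-0.066; -0.066 with the block), Sdhb (0.023; 0.021 with the block), Ndufb8 (0.12; 0.12 with the block), Uqcr10 (0.027; 0.024 with the block), Uqcr11 (0.16; 0.16 with the block), Atp5g2 (0.14; 0.14 with the block) and Atp5b (0.0075; 0.0043 with the block). Ndufa4 was also below 0 with DESeq2 size factors (-0.0034), the DESeq2 test (-0.0032), limma-voom (-0.0024), no filter (-0.00059) and the replicate block (-0.0042). Leaving out 1 library gave -0.067 to 0.064 for Atp5b, -0.11 to 0.027 for Cox4i1, -0.17 to 0.74 for Cox4i2, -0.058 to 0.11 for Cox6b1, -0.10 to 0.046 for Cox7a2, -0.11 to 0.015 for Cox7a2l, -0.11 to 0.073 for Ndufa4, -0.12 to 0.051 for Ndufb8, -0.16 to 0.0091 for Sdhb, -0.22 to 0.040 for Sdhc and -0.067 to 0.069 for Uqcrh. The cause of these changes was not tested. Differences in isoform share between the groups, in percentage points, were -4.17 for Cox6a2, -0.31 for Cox7a1 and 2.28 for Cox8b per kilobase, and -4.87, -0.17 and 1.52 with raw counts; over the left-out libraries they were -5.64 to -3.24, -1.48 to 1.63 and 1.56 to 2.75. The shares themselves depend on the length scaling: Cox7a1 averaged 3.33% after doxycycline and 3.51% untreated with raw counts. Counts under 60 per library limit the precision for Cox7a1, Cox8b and Cox4i2. Low counts also limit it for Cox6a2, with 11, 52 and 14 counts after doxycycline and 53, 51 and 81 untreated.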
